A study of Mus musculus with 6 samples.

Results

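The p200 HIN family was examined in mouse bone marrow cells that had received a retroviral MN1 vector or the vector alone. The members asked for were Ifi203, Ifi204, Ifi205, Aim2, Mnda and Pydc3; 4 of these 6 are among the 19938 genes measured by a probe set of their own. Each member had to be read by a probe set annotated with its symbol alone. Ifi203, Ifi205 and Aim2, 3 of the 6, met this with 1 probe set each. Pydc3 is an older name of Ifi208 in the RefSeq gene table, and Ifi208 had 1 probe set. Mnda is an older name of Ifi211 there. Ifi211 and Ifi204 are both annotated to 1 shared probe set, so 2 of the 6 members have a single joint value, called Ifi211/Ifi204 here. The 6 members thus rest on 5 probe sets.

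Both groups were transduced bone marrow cells sorted for the fluorescent reporter 72 hours after transduction, in what the series description calls independent experiments. The first group carried MN1 in an MSCV retroviral vector with an IRES-linked reporter, and the second the same kind of vector with the reporter only. MN1 is a transcriptional coregulator often highly expressed in acute myeloid leukaemia. Each group held 3 arrays, the sample labels call the reporter GFP where the series description has YFP, and no source used here names the mouse strain or age. As a model the MN1 group is limited to forced expression from a retroviral promoter in a mixture of sorted marrow cells. In such bulk samples, fewer cells of a type and less RNA per cell cannot be told apart.

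Genes of the p200 family encode interferon-inducible proteins that bind DNA through a HIN domain, and most of them also carry a pyrin domain, through which they join other proteins. Aim2 senses DNA in the cytosol and assembles an inflammasome with the adaptor ASC, the product of Pycard, and caspase 1. The human relatives IFI16 and MNDA are best known as a nuclear and cytosolic DNA sensor and as a nuclear antigen of myeloid cells. The mouse genes lie side by side on chromosome 1, the result of repeated duplication, and many of them are close copies of each other.

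The copies are visible in the DNA just upstream of the genes, which is given first because it shows which genes of the cluster are alike there. RefSeq promoter windows (GRCm38.p6, 250 bases before to 50 bases after an annotated start) were held for 12 genes of the cluster, in 14 windows. The window of the member Ifi203 matched that of its neighbour Mndal at 97.6% of 289 aligned bases. Ifi208 matched Ifi206 at 99.3% of 281 bases and Ifi213 at 98.9% of 285 bases. Ifi211 matched Ifi205 at 94.5% of 199 bases and Ifi207 at 88.3% of 290 bases, and Ifi214 matched Ifi209 at 96.0% of 299 bases. These figures come from local alignments, were picked from the longest ones and leave out bases that did not align. Other pairs of members aligned only briefly. Ifi203 aligned with Ifi205 over 35 bases, with Ifi208 over 24 and with Ifi211 over 21. Ifi208 aligned with Ifi205 and with Ifi211 over 20 bases each, and Aim2 with Ifi203 over 13. Probe sequences were not used here, so how far the probe sets tell these copies apart was not tested.

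The upstream part of the Ifi203 window that holds an interferon-type motif is given in full, 250 bases ending at the annotated start, with the motif in capitals.
Ifi203 upstream region, chr1:173942493-173942742, minus strand: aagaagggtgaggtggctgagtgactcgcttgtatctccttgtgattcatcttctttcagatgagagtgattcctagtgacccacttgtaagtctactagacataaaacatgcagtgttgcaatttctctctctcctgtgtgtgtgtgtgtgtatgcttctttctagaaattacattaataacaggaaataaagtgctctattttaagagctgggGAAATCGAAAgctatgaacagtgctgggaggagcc
The capitals match GAAANNGAAA, the spaced GAAA repeat at the core of the interferon-stimulated response element, which interferon regulatory factors bind. Both strands were searched. Of all 32851 promoter windows in the table, 1131 held it, or 3.44%, against 10 of the 14 windows of the cluster. Those 10 windows belong to 9 of the 12 genes. The longer match GAAATCGAAA, a special case of the first motif that was picked after the cluster's sequences were seen, stood in only 16 of the 32851 windows, or 0.0487%, and 7 of those 16 belong to the cluster. A match describes letters and is not evidence that a factor binds there.

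Stretches of 40 bases around the motif show how closely the copies resemble each other, again with the match in capitals and in the direction of transcription.
Ifi203, chr1:173942503-173942542, minus strand: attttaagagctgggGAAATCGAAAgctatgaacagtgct
Mndal, chr1:173880199-173880238, minus strand: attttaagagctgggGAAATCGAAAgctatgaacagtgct
Ifi211, chr1:173913059-173913098, minus strand: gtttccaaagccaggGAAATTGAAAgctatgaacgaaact
Ifi205, chr1:174031865-174031904, minus strand: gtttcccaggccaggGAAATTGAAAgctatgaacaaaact
Ifi207, chr1:173741826-173741865, minus strand: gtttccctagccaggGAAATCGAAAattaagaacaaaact
Ifi208, chr1:173673592-173673631, plus strand: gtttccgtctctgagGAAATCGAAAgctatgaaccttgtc
Ifi214, chr1:173536012-173536051, minus strand: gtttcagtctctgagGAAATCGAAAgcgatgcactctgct
Ifi203 and Mndal were identical over this stretch and carried the motif 35 and 36 bases upstream of the start.
Ifi209, chr1:173630765-173630804, plus strand: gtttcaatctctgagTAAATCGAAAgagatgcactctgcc
In the Ifi209 window GAAANNGAAA was not found. Its nearest match to GAAATCGAAA, shown in capitals, differed by G1T, counted from 1 at the 5′ end of the motif, and lay 79 bases upstream; 1.38% of all windows match with at most 1 base changed. The windows of Aim2 and Ifi202b, and a second Ifi203 window at another annotated start, held neither motif nor a match with 1 base changed. In the windows of Ifi211 and Ifi205 the matched letters were GAAATTGAAA, 37 and 134 bases upstream.

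All values are log2 expression values made by RMA, on which a difference of 1 is a doubling, and differences are MN1 minus empty vector with the moderated SE from limma. The members were chosen by this same comparison: Ifi203 was selected on its unadjusted p-value, one of the smallest of all genes, and its relatives were added with their values known. The differences of the members, and the small within-group spread of Ifi203, are therefore a description and carry no test. Across all genes limma called 0 of 19938 (0.0%) at an adjusted p under 0.05, the smallest being 0.579, and 0 of the 4 members with a probe set of their own. Before adjustment, 832 genes (4.17%) had a p under 0.05 and a higher MN1 mean, and 843 (4.23%) a lower one.

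Ifi203, an interferon-inducible nuclear protein gene, measured 9.17, 9.01 and 9.07 on the MN1 arrays and 8.16, 7.95 and 8.23 on the empty vector arrays. The groups were separated by a gap of 0.78 between the lowest MN1 and the highest empty vector value, while the 3 MN1 arrays lay within 0.16 of each other and the empty vector arrays within 0.28. MN1 arrays averaged 9.08 ± 0.08 and empty vector arrays 8.11 ± 0.15 (SD, n = 3). The difference was 0.97 ± 0.11 (SE), or 1.96-fold, and it ran from 0.89 to 1.03 when each array was left out in turn.

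The shared probe set of Ifi211 (Mnda) and Ifi204 read 9.13, 8.86 and 8.65 with MN1 and 8.28, 7.65 and 7.95 with the empty vector. Ifi204 encodes p204, a DNA sensor that works with STING and has been described in myeloid differentiation. Here too every MN1 array lay above every empty vector array, with a gap of 0.37. The difference was 0.92 ± 0.20 (SE), or 1.89-fold, and which of the genes contributed to it cannot be told from this probe set.

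Ifi205 had the largest mean difference of the 5 member probe sets and the least agreement between arrays. It measured 7.92, 6.94 and 5.27 on the MN1 arrays against 6.82, 4.98 and 5.18 on the empty vector arrays, so the groups overlapped widely. MN1 replicates 1 and 2 and empty vector replicate 1 were high, and the other arrays lay between 4.98 and 5.27. Those low values are under the array medians of 5.82 to 6.01. The difference of 1.05 ± 0.77 (SE) fell to 0.44 without MN1 replicate 1 and to 0.71 without empty vector replicate 2, and rose to 1.77 without MN1 replicate 3 and 1.63 without empty vector replicate 1.

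Aim2, the inflammasome DNA sensor, differed less. It stood at 7.53, 7.62 and 8.45 with MN1 and at 7.22, 7.40 and 7.68 with the empty vector. Only MN1 replicate 3 stood clear of the empty vector arrays, and the other MN1 values fell just below the highest of them. The difference was 0.44 ± 0.27 (SE), or 0.14 without MN1 replicate 3.

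Pydc3, named for its pyrin domain and listed now as Ifi208, gave the smallest difference. The values were 4.98, 4.72 and 4.21 with MN1 and 4.68, 4.47 and 4.41 with the empty vector. MN1 replicate 3 was the lowest of the 6 arrays and MN1 replicate 1 the highest. The difference was 0.12 ± 0.21 (SE), and it became -0.06 without MN1 replicate 1. These values lie under the array medians of 5.82 to 6.01, where RMA pulls values together and no detection call was at hand.

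**Figure D1:**
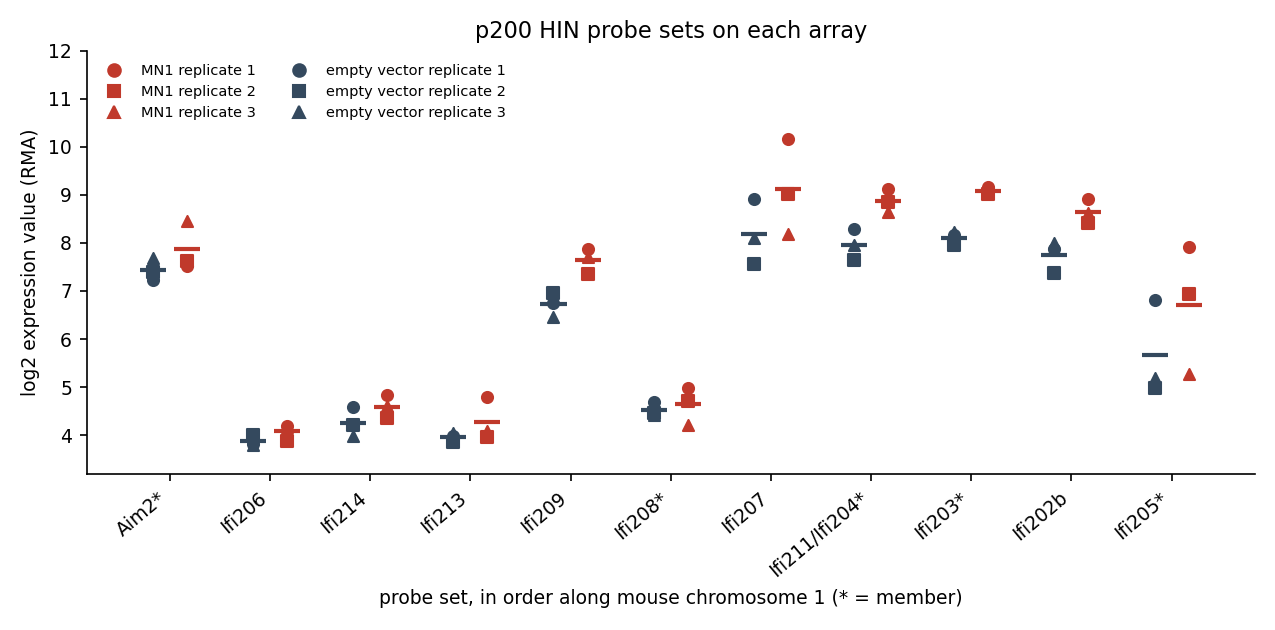
Log2 expression value (y axis) of the 11 p200 probe sets, in their order along chromosome 1 (x axis), on each of the 3 MN1 arrays (red) and 3 empty vector arrays (dark); marker shape gives the replicate and the bar the group mean. Ifi203, Ifi211/Ifi204, Ifi202b and Ifi209 show groups that do not overlap, while Ifi205 and Ifi207 spread widely within both groups.

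The neighbours in the cluster that are not members gave another 6 probe sets, 1 each for Ifi202b, Ifi206, Ifi207, Ifi209, Ifi213 and Ifi214; Mndal was not analysed here. Ifi202b encodes p202, which has no pyrin domain and restrains Aim2, and its level is known to differ between inbred strains. It read 8.91, 8.41 and 8.62 with MN1 against 7.87, 7.37 and 7.99, a difference of 0.91 ± 0.20 (SE) with separated groups. Ifi209, listed also as Pyhin1, read 7.88, 7.35 and 7.71 against 6.76, 6.96 and 6.45, a difference of 0.92 ± 0.19, again without overlap. In all, 4 of the 11 probe sets of the cluster (Ifi203, Ifi211/Ifi204, Ifi202b and Ifi209) had separated groups, with differences of 0.91 to 0.97. Among all genes 5.71% had MN1 wholly above and 10.3% wholly below, and the family was chosen by this same comparison.

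Ifi207 differed by nearly as much but varied as Ifi205 did. Its MN1 values were 10.17, 9.02 and 8.19 and its empty vector values 8.91, 7.56 and 8.11, so the difference of 0.94 ± 0.55 (SE) went with overlapping groups. Without MN1 replicate 1 it was 0.42, and without empty vector replicate 2 it was 0.62. Ifi206, Ifi213 and Ifi214 all measured between 3.79 and 4.83, in the low range of the arrays. Their differences were 0.21 ± 0.13, 0.32 ± 0.22 and 0.33 ± 0.19, each with overlapping groups.

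Counted together, all 5 member probe sets were higher in mean with MN1, as were all 6 of the others, where 43.3% of all genes were. The MN1 arrays lay wholly above the empty vector arrays for 2 of the 5 member probe sets and 2 of the other 6, and wholly below for 0 of the 11; among all genes the shares were 5.71% above (1139 genes) and 10.3% below (2052 genes). That balance turned round without the dimmest 40% of probe sets, with 998 genes above and 698 below, and was 1045 and 1385 after quantile normalization. The median difference was 0.92 over the 5 member probe sets, 0.91 over all 11 and -0.03 over all genes. Without MN1 replicate 1 the members' median was 0.60. Because the family was chosen for this comparison, and because its copies may share signal, these counts describe the cluster and support nothing further.

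**Figure D2:**
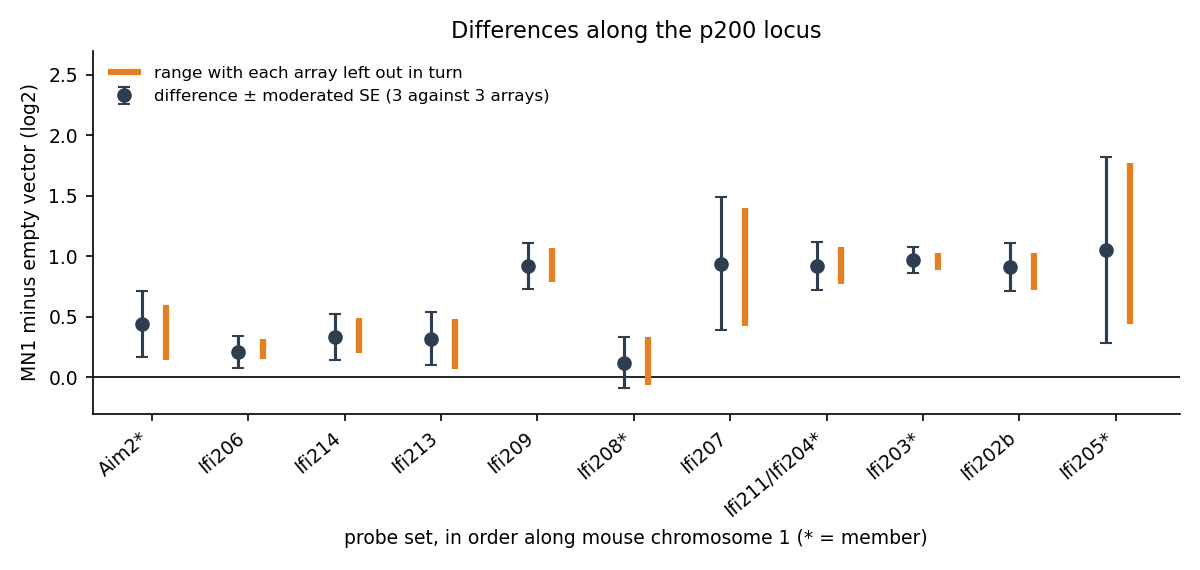
MN1 minus empty vector difference (log2, y axis) of the 11 p200 probe sets in chromosome order (x axis), with the moderated SE as the error bar (3 arrays against 3) and, in orange, the range of the difference when each array is left out in turn. Ifi203 has the narrowest range among the large differences, 0.89 to 1.03, and was selected on a p-value that favours a small spread. Ifi205 has the widest, 0.44 to 1.77, and only Ifi208 reaches below 0.

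The members varied widely in how far arrays of the same group lay apart. The pooled within-group SD of Ifi203 was 0.12, above that of 27.0% of all genes and below the median SD of 0.17. For Ifi205 it was 1.19, above 99.5% of genes, and for its neighbour Ifi207 0.85, above 98.1%. Ifi211/Ifi204 had an SD of 0.28, Ifi208 of 0.30 and Aim2 of 0.39, above 75.7%, 78.3% and 87.3% of genes. Ifi205 and Ifi203 therefore had differences of similar size, 1.05 and 0.97, with a within-group SD of 1.19 in the first and 0.12 in the second. Ifi203 was selected on its unadjusted p-value, which favours a small within-group SD, so its low SD is part of that choice.

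**Figure D3:**
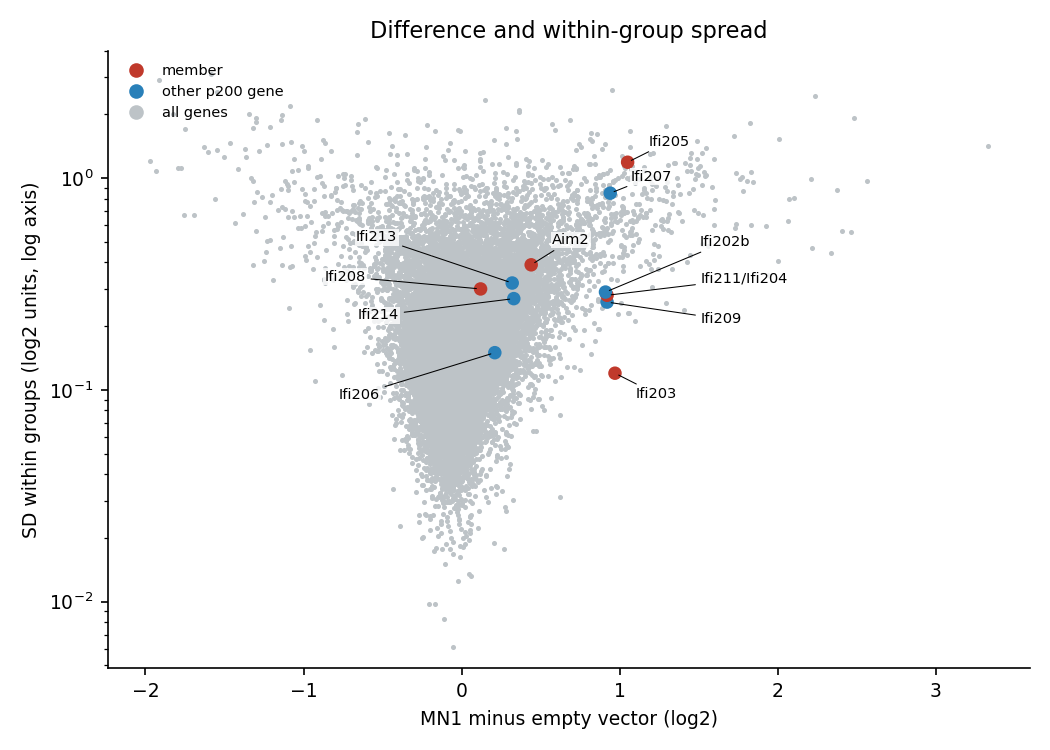
Each point is a gene, placed by its MN1 minus empty vector difference (log2, x axis) and by its pooled SD within the groups (log2 units, logarithmic y axis); members are red, other p200 genes blue and all genes grey. Ifi203 sits at a difference of 0.97 with an SD of 0.12, and Ifi205 at 1.05 with an SD of 1.19. Ifi203 was selected on a p-value that favours a small SD.

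The genes whose profile over the 6 arrays came closest to each member were found by the root mean square difference between mean-centred log2 profiles, among 9803 genes whose values span at least 0.5. Nearest to Ifi203 were Nrip1, a nuclear receptor corepressor gene, at 0.09, Pls3, which encodes an actin-bundling plastin, at 0.12, Ahcyl2 and the macrophage gene Ms4a6d at 0.13 each, and Ifi202b and Plaat3 at 0.15 each. Ifi202b, the gene next to Ifi203 on the chromosome, was thus among the 6 nearest. Nrip1 read 9.09, 8.98 and 9.17 with MN1 against 8.33, 8.05 and 8.40. These profiles include the difference between the groups, on which Ifi203 was selected.

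Other members had other neighbours. Ifi211/Ifi204 was nearest to Sntb1, a syntrophin gene, at 0.09 and to Ctss, the lysosomal protease cathepsin S of antigen-presenting cells, at 0.10. Ifi205 lay nearest to Alox12, the platelet-type lipoxygenase gene, at 0.08, and to the creatine transporter gene Slc6a8 at 0.17; Alox12 read 8.14, 6.93 and 5.47 with MN1 and 7.05, 5.08 and 5.32 with the empty vector. Of all genes compared with Ifi205, Ifi207 ranked at place 32, at 0.36, while Ifi203 ranked at place 1300, at 0.94. Aim2 was nearest to Zfp277 and Ift74, both at 0.07, and Ifi208 to Gbx2 and Adam1a, both at 0.05. The members did not share one profile: Ifi203 and Ifi211/Ifi204 were 0.18 apart, Ifi203 and Aim2 0.43, and Aim2 and Ifi205 1.30.

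Genes that work with p200 proteins were set beside the cluster. Of 22 measured inflammasome partners, 16 were higher and 6 lower in mean, with a median difference of 0.20. MN1 lay wholly above for 1 of the 22 and wholly below for 0, where 5.71% and 10.3% of all genes did. Casp1, the caspase that Aim2 activates, read 8.05, 8.57 and 8.36 with MN1 and 7.92, 7.38 and 7.93 with the empty vector, a difference of 0.59 ± 0.20 (SE) with separated groups. Pycard, the adaptor, differed by 0.45 ± 0.24 (0.25 without MN1 replicate 3), and the substrates Il18 and Il1b by 0.44 ± 0.67 and 0.01 ± 0.41, each with overlapping groups. Larger differences were in Il1a at 0.70 ± 0.54, the thioredoxin-binding Txnip at 0.60 ± 0.30 and the bacterial sensor Naip5 at 0.60 ± 0.25, also overlapping. Each of these was smaller without 1 array: Il1a fell to 0.08 without empty vector replicate 2, and Txnip and Naip5 to 0.28 and 0.35 without MN1 replicate 1. Il18 values reached down to 4.51 with MN1 and 4.36 with the empty vector, in the low range of the arrays.

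Of 24 genes of cytosolic nucleic acid sensing, 16 had a higher MN1 mean and 8 a lower one (median 0.18). Sting1, through which p204 signals, differed by 0.05 ± 0.31 and the DNA sensor gene Cgas by -0.06 ± 0.22. Irf7, a transcription factor of the interferon response, read 11.67, 11.35 and 11.42 with MN1 against 10.95, 9.61 and 10.77, a difference of 1.04 ± 0.35 (SE), or 0.62 without empty vector replicate 2. Dhx58, a regulator of RNA sensing, differed by 0.76 ± 0.22 and Trim30a, an interferon-induced tripartite motif gene, by 0.58 ± 0.18. The groups did not overlap for these 3 genes, which are the only ones of the 24 with MN1 wholly above, and 0 lay wholly below. Among all genes the shares were 5.71% above and 10.3% below.

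Interferon signalling genes were divided. Of 23 measured, 13 had a higher MN1 mean and 10 a lower one (median 0.12). MN1 lay wholly above for 4 of the 23 and wholly below for 2, where 5.71% and 10.3% of all genes did. Stat2 and Irf9, which encode parts of a transcription factor complex activated by type I interferon, differed by 0.64 ± 0.20 and 0.35 ± 0.18, and the receptor gene Ifnar1 by 0.32 ± 0.11; Irf9 overlapped between groups and the other two did not. Irf9 was at 0.23 without empty vector replicate 2. Il10rb, a shared receptor chain, was at 0.58 ± 0.21, or 0.38 without MN1 replicate 1. The interferon genes Ifnb1 and Ifna2 had lower MN1 means, with differences of -0.13 ± 0.22 and -0.57 ± 0.18. Both lay at values of 3.87 to 5.89, in the low range of the arrays. Ifna2 was named for the size of its difference, and other interferon genes of the list are not given here. Of 17 genes reported as partners or targets of p204 and p202, 8 had a higher MN1 mean and 9 a lower one (median -0.04). Id2 and Id1, inhibitors of helix-loop-helix factors, differed by 0.64 ± 0.27 and -0.46 ± 0.19, the retinoblastoma gene Rb1 by 0.38 ± 0.24 and the myeloid factor gene Spi1 by -0.22 ± 0.24. With arrays left out in turn, Id2 ran from 0.42 to 0.90, Id1 from -0.61 to -0.30 and Rb1 from 0.26 to 0.62. By limma 0 genes of these 4 lists passed at an adjusted p under 0.05, in either direction.

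**Figure D4:**
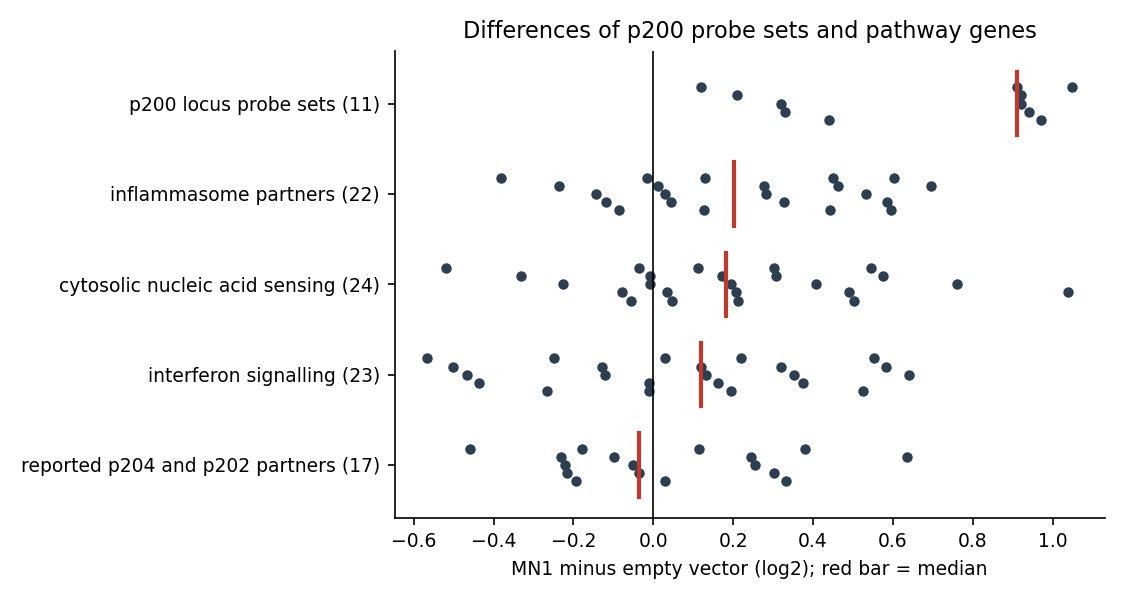
MN1 minus empty vector difference (log2, x axis) of each p200 probe set and each gene of 4 pathway lists (rows, number of points in brackets); the red bar is the list's median. The p200 probe sets have a median of 0.91, the inflammasome, nucleic acid sensing, interferon signalling and partner lists medians of 0.20, 0.18, 0.12 and -0.04.

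Of the 12 marrow genes checked, among them Ptprc, Mpo, Kit and Spi1, all had means over the 6 arrays of 9.90 or more. Elane, the neutrophil elastase gene of granulocyte precursors, had the lowest mean and was uneven: it read 8.66, 11.68 and 6.98 with MN1 and 12.67, 12.96 and 6.45 with the empty vector, so replicate 3 was the lowest of both groups. Mn1 itself read 6.47, 6.62 and 6.08 on the MN1 arrays against 5.34, 5.41 and 4.80, a difference of 1.20 ± 0.21 (SE). The empty vector values of Mn1 lie under the array medians of 5.82 to 6.01, in the low range of the arrays.

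Because p200 genes are expressed in myeloid and other blood cells, marker lists were set beside them. Of 18 monocyte and macrophage markers, 15 were higher and 3 lower with MN1, with a median difference of 0.80. MN1 lay wholly above for 6 of the 18 and wholly below for 0, where 5.71% and 10.3% of all genes did. The mean of that list was 10.02 to 10.57 on MN1 arrays and 9.31 to 9.80 on empty vector arrays, so it separated the groups, as did the mean of the 11 p200 probe sets, at 6.64 to 7.23 and 6.04 to 6.46. C1qa, C1qc and Lgmn, macrophage complement and protease genes, differed by 1.76 ± 0.64, 1.46 ± 0.58 and 1.51 ± 0.74 (SE), with overlapping groups for Lgmn. Without empty vector replicate 2 they were at 1.16, 0.84 and 0.64. Stem and progenitor markers also separated the groups, at 8.85 to 9.32 and 8.35 to 8.62. MN1 lay wholly above for 6 of these 15 markers and wholly below for 0. Flt3, Hlf and Slamf1 differed by 1.83 ± 0.39, 1.30 ± 0.43 and 1.04 ± 0.65. Slamf1 overlapped between groups and was at 0.49 without MN1 replicate 1. The part of either cell type in the p200 differences was not tested.

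The 3 arrays where Ifi205 was high, MN1 replicates 1 and 2 and empty vector replicate 1, were compared with these lists. The mean of 10 megakaryocyte markers, all higher in mean, was 10.86, 10.11 and 9.06 with MN1 and 9.66, 8.45 and 9.34 with the empty vector. Their median difference was 0.92. MN1 lay wholly above for 2 of the 10 and wholly below for 0, where 5.71% and 10.3% of all genes did. Ppbp, Treml1 and Pf4, genes of platelet granules, differed by 1.34 ± 0.56, 1.19 ± 0.64 and 1.18 ± 0.53. Without empty vector replicate 2, Ppbp and Pf4 were at 0.69 and 0.54, and without MN1 replicate 1 Treml1 was at 0.55. The list's mean was highest on those 3 arrays, but Ppbp and Pf4 were not: Ppbp read 11.60 on MN1 replicate 3 and 11.14 on empty vector replicate 1. Among 16 dendritic cell markers 9 were higher and 7 lower, and Itgax, the CD11c gene, was at 11.46, 11.01 and 8.02 against 10.76, 8.29 and 8.26. Flt3, given above with the stem and progenitor markers, is on the dendritic list too and has its largest difference, 1.83 ± 0.39. MN1 lay wholly above for 2 of the 16 and wholly below for 2, where 5.71% and 10.3% of all genes did. The mean of the dendritic list was no higher on empty vector replicate 1, at 7.60, than on empty vector replicate 3, at 7.61. Ccr7, a homing receptor, differed by -0.88 ± 0.62, or -0.17 without empty vector replicate 3. Genes with their 3 highest values on the same arrays as Ifi205 came from several lists: besides Itgax, they included Treml1, the stem cell marker Slamf1, at 8.52, 7.32 and 6.43 against 7.29, 5.40 and 6.44, and the lymphoid receptor gene Il7r, at 11.51, 10.81 and 9.26 against 10.08, 7.90 and 9.12. They were singled out after their values were seen, and the part of any cell type in the spread of Ifi205 was not tested.

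The lists of other cell types were lower with MN1 or divided. Granulocyte markers were lower in 17 of 18, with means of 8.94 to 9.84 with MN1 and 8.84 to 11.73 with the empty vector; Ly6g, Ms4a3 and Fcnb differed by -1.83 ± 1.30, -1.75 ± 1.10 and -1.63 ± 0.91. Empty vector replicate 3, at 8.84, lay below every MN1 array and apart from the other empty vector arrays at 10.70 and 11.73. With arrays left out in turn, Ly6g ran from -3.32 to -0.94, Ms4a3 from -2.66 to -0.77 and Fcnb from -2.58 to -0.64. Of 10 erythroid markers 9 were lower, at 6.50 to 7.04 against 7.14 to 7.39, with Car1, Rhag and Klf1 at -1.24 ± 0.43, -1.10 ± 0.43 and -0.64 ± 0.27. Rhag was at -0.65 without empty vector replicate 3 and Klf1 at -0.41 without MN1 replicate 1. Of 14 T and NK markers 11 were lower, at 5.49 to 5.80 against 5.90 to 6.07, with Thy1 at -1.10 ± 0.59, Prf1 at 0.73 ± 0.57 and Cd2 at -0.67 ± 0.45. Thy1 was at -0.51 without MN1 replicate 1, Prf1 at 0.03 without MN1 replicate 2 and Cd2 at -0.13 without empty vector replicate 3. The T and NK list means lay near the array medians of 5.82 to 6.01, with gene means down to 3.72. That low range limits what can be said of this list. B lineage markers were higher in 9 of 14 and overlapped, at 5.93 to 6.88 against 5.56 to 6.96; Il7r, Blnk and Dntt differed by 1.50 ± 0.73, 1.08 ± 0.74 and 0.88 ± 0.36. Without empty vector replicate 2, Il7r and Blnk were at 0.93 and 0.31, and without MN1 replicate 3 Dntt was at 0.50. Rhag values reached down to 4.05 and Dntt values to 4.56, also in the low range of the arrays. MN1 lay wholly below for 5 of 10 erythroid and 4 of 14 T and NK markers. For granulocyte markers that held for 1 of 18, and for B lineage markers for 0 of 14. In each of these lists 0 lay wholly above. Among all genes the shares were 10.3% below and 5.71% above. RMA values have no zero, so no marker is at 0 in these data, and 0 markers of any list passed limma's adjusted threshold.

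**Figure D5:**
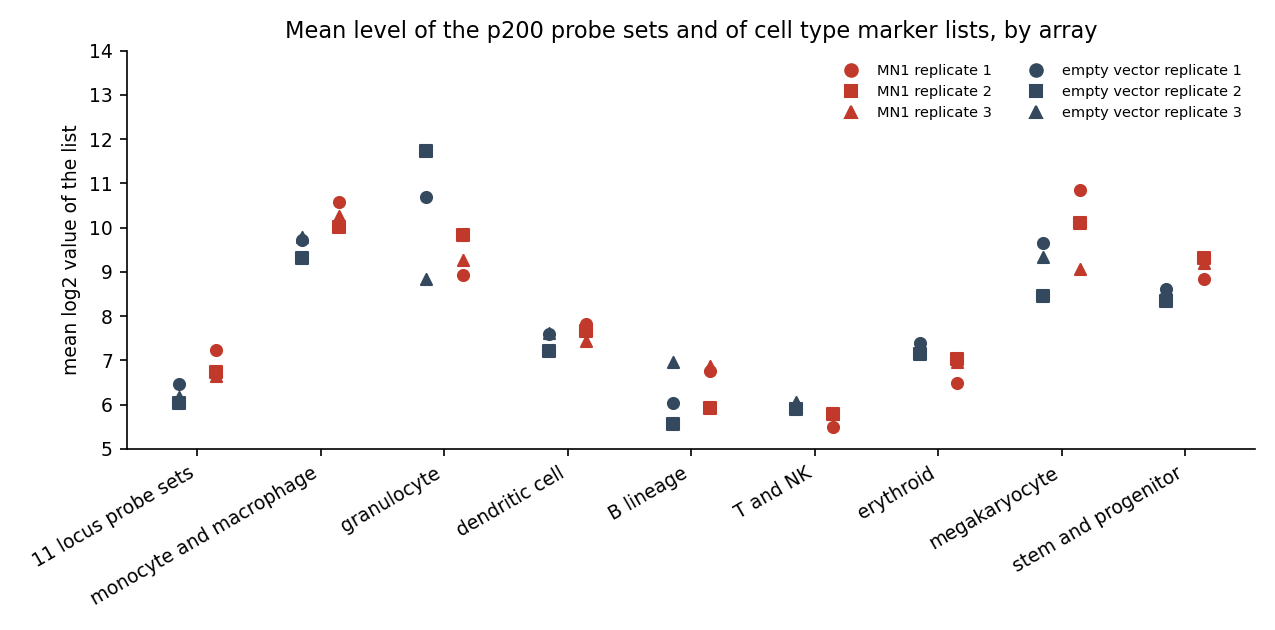
Mean log2 value (y axis) of the 11 p200 probe sets and of 8 cell type marker lists (x axis) on each MN1 (red) and empty vector (dark) array; marker shape gives the replicate. The p200, monocyte and stem lists lie higher on all 3 MN1 arrays than on any empty vector array, and the erythroid and T and NK lists lie lower on all 3. The T and NK means lie near the array medians of 5.82 to 6.01.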

How the data were processed

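Per the labels' protocols, 200 ng of RNA from each of 6 samples went through Affymetrix whole-transcript labelling with biotin, 1 sample per array. The authors deposited log2 values per probe set. The submitters' processing notes name RMA, with no version. That the scale is log2 was inferred from the range, 2.29 to 14.80. Of 35557 probe sets, 21789 carry 1 symbol in the platform annotation of 2016, 1621 several and 12147 are not named in it. The probe set with the highest mean was kept for 999 genes with several, leaving 19938 genes; each member had 1.

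Groups and replicate numbers came from the sample titles. limma 3.58.1 (R 4.3.3; lmFit and eBayes, two-sided, no block, Benjamini-Hochberg over 19938 genes, threshold 0.05) gave differences and SE, with 4 residual and 2.43 prior degrees of freedom. The shared Ifi211/Ifi204 probe set was added to the fit for its difference and SE only. The script was tested on simulated data. Precision is limited by having 3 arrays a group.

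Members, lists and the rule for naming genes (members, all measured p200 genes, Mn1, the 3 largest differences per list, a fixed set of partners, and the nearest profiles) were chosen with earlier results of these data known. The 14 lists hold p200, inflammasome, nucleic acid sensing, interferon signalling and partner genes, marrow genes and markers of 8 cell types. Older symbols were matched through the RefSeq gene table (GRCm38.p6), whose order along the chromosome was used; coordinates are given only for RefSeq promoter sequences. Alternatives were a replicate block, median-centring, quantile normalization, a filter that dropped the 40% of probe sets with the lowest means, averaging over a gene's probe sets, an intensity trend with robust prior, array weights and leaving out each array.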

Additional observations from a re-analysis of the deposited data

How the results depend on the processing

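Under all 13 alternatives limma called 0 genes at an adjusted p under 0.05. Of 139 differences of the 11 p200 probe sets under these alternatives, 138 kept their sign, and the exception was Ifi208. Of these differences 0 moved by more than the within-group SD, but leaving out a single array cannot move a difference that far. The replicate block, the trend and robust prior, the filter and averaging over probe sets leave these differences unchanged by design. Leaving out each array in turn, the members' median ran from 0.60 to 0.99, and 10 to 11 of the 11 p200 probe sets were higher, a count added after seeing the data. The members' median was 0.92 with the replicate block, 0.81 after quantile normalization and 0.91 with the other p200 probe sets added.

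Genes with all MN1 arrays below the empty vector arrays numbered 698 without the dimmest 40% of probe sets against 2052, while those with MN1 above numbered 998 against 1139; the cause was not tested. Mn1 and the genes named from the pathway, marrow and marker lists, 49 in all, reversed their sign in 14 of 631 values. Genes outside the cluster named only for a near profile or for GAAATCGAAA were not followed under the alternatives. After quantile normalization Il1b stood at -0.04 and Sting1 at -0.03; the cause was not tested. With arrays left out, Il1b ran from -0.23 to 0.42, Il18 from -0.02 to 1.06, Sting1 from -0.18 to 0.33, Cgas from -0.25 to 0.17, Ifnb1 from -0.32 to 0.03 and Spi1 from -0.45 to 0.00.

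Same-numbered arrays deviated from their group means with correlations of 0.13, 0.07 and 0.32 across genes, and differently numbered ones with -0.50 to 0.44. These values do not settle whether the numbers pair the arrays. The labels state no pairing, and none was used in the main fit. With the replicate block 0 genes were called. Values in the low range of the arrays limit what can be said of Ifi206, Ifi208, Ifi213 and Ifi214, and of Ifi205 on the arrays where it read 4.98 to 5.27.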

Other observations

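The interferon-type motif was followed beyond the cluster. Outside the cluster, 1070 genes held GAAANNGAAA in a promoter window, and 598 of them were measured. Of these, 268 were higher and 330 lower with MN1, with a median difference of -0.03, as over all genes. Their groups did not overlap, with MN1 above, for 7.36%, and with MN1 below for 9.7%, near the shares over all genes of 5.71% and 10.3%.

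The longer match GAAATCGAAA stood in the windows of 9 genes outside the cluster, of which 6 were measured. These genes were named after the sequences were seen. Serpinb6a, a serine protease inhibitor gene, differed by 1.11, the RNA sensor gene Ddx58 by 0.50, Parp11 by 0.31 and Pnrc1 by 0.05. Adcyap1 differed by -0.08 and Six3os1 by -0.18. The median over these 6 genes was 0.18.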
